A study of Mus musculus with 6 samples.

Results

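Alveolar type 1 cells are the thin, flat epithelial cells that cover most of the gas-exchange surface of the lung. A set of 10 genes known to mark them, Ager, Hopx, Aqp5, Pdpn, Cav1, Rtkn2, Emp2, Akap5, Clic5 and Gprc5a, was taken by name from a lung count table of 25860 genes, and all 10 were found and tested. The lungs came from 6 untreated mice aged 12 months. Replicates 1, 2 and 3 were RAG1-/- and replicates 4, 5 and 6 were RAG1-/-Sgo1-/+, so n was 3 per genotype. Both groups lacked both copies of RAG1, the recombinase that B and T cells need to assemble their antigen receptors, and the second group also carried 1 functional copy of Sgo1, which protects the cohesion of sister chromatids in cell division. Neither allele was restricted to a cell type, and no group with intact RAG1 was analysed here. RNA was extracted from unsorted lung tissue that looked normal, with 1 library per mouse. The comparison asks whether normal-looking lung of mice prone to chromosome instability differed in these genes.

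The alveolar wall is built of 2 epithelial cell types. Type 2 cells are cuboidal, secrete surfactant and act as progenitors, while type 1 cells spread over the capillaries, pass gas and water and share a basement membrane with the endothelium. Type 1 cells arise from type 2 cells in growth and repair, and the transcription factors NKX2-1 and the TEAD partners of YAP and TAZ take part in keeping their genes active.

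The 3 upstream sequences that follow are shown because they belong to the most abundant gene of the set and to the 2 genes in which a searched motif was found. They are the 250 bases before a start site of each gene in RefSeq on GRCm38.p6. Each is written 5′ to 3′ on the strand of the gene, with motif letters in capitals. The counts were made on build 37.2, so these coordinates belong to the RefSeq table alone.
Hopx, chr5:77115124-77115373, minus strand: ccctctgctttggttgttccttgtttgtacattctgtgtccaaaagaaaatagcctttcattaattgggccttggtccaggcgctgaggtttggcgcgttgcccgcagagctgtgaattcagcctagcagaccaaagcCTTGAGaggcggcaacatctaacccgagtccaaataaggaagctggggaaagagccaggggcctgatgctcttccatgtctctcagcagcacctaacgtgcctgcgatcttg
Pdpn, chr4:143299565-143299814, minus strand: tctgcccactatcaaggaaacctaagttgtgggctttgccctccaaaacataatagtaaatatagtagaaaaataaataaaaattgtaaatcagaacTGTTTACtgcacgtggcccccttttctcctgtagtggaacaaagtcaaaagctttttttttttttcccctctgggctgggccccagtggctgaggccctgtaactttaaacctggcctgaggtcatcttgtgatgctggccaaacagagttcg
Ager, chr17:34597600-34597849, plus strand: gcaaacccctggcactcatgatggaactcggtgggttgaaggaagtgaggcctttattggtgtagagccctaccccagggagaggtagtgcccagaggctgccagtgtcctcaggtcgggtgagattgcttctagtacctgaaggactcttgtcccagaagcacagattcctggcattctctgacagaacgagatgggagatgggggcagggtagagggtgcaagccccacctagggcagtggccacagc
Of the 10 genes, 8 had an entry in the RefSeq promoter table, with 10 windows in all, and Rtkn2 and Gprc5a had none. Each motif was searched on both strands, as GGAATG for the TEAD factors. The letters for NKX2-1, the lung lineage factor, were CTCAAG. For FOXA, the forkhead factors of endoderm, they were TGTTTAC. Factors of the GATA family were searched as AGATAA. The Hopx window shown held the NKX2-1 letters on the reverse strand, 112 to 107 bases before its start site. Hopx had a further window, chr5:77095268-77095517, which is not shown and held 0 of the motifs. In the Pdpn window the FOXA letters stood on the forward strand, 153 to 147 bases before the start. No other window of the set held any of the 4 motifs. Among all 32851 promoters cut to the same length, 12.6% held the TEAD letters, 13.3% the NKX2-1 letters, 3.17% the FOXA letters and 9.99% the GATA letters. A match is a description of letters, and nothing about binding was measured here.

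Library totals ran from 3205822 to 9366774 reads on genes. Levels are given as CPM, that is counts divided by the library total and rescaled, and 3 reads, the least taken as detected, equal 0.320 to 0.936 CPM. Sgo1 was too scarce to check the genotype, with 6, 2 and 4 reads in replicates 1, 2 and 3 against 6, 0 and 2 in replicates 4, 5 and 6. Rag1 had 24, 10 and 16 reads against 12, 8 and 8. In 3 libraries single genes or lists stood apart. The library labelled RAG1-/- replicate 2 held 1853 reads of the immunoglobulin gene Igkc, against 8 in replicate 1 and 0 in each of the other 4 libraries, which goes against its label. Replicate 1 was the only library with more than 8 reads of Xist (7717). It had 2 reads of the Y-linked gene Ddx3y, against 909 and 1228 in replicates 2 and 3 and 670, 789 and 342 in replicates 4, 5 and 6. By these genes replicate 1 came from a female and the rest from males, so sex was not balanced between the genotypes. Replicate 6, the shallowest library, had a summed level of 9 alveolar macrophage genes of 6884 CPM, against 655 to 1221 CPM elsewhere. Over the 6 libraries 1 gene, Chil3, made up 71.4% of this sum. As log2 deviations from each gene's mean over the libraries, the median of the 9 was 0.67 in replicate 6 and -0.40 to 0.24 elsewhere. Results on the 10 genes are therefore also given without these libraries. Across all 17231 genes tested with the quasi-likelihood test of edgeR, 0 (0%) passed a Benjamini-Hochberg adjusted p under 0.05 with at least a 2-fold difference, and 976 (5.66%) had an unadjusted p under 0.05. DESeq2 called 1.

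The type 1 genes were abundant in every library, and their levels did not separate the genotypes. Together the 10 genes took 1.26%, 0.939% and 1.10% of all counted reads in RAG1-/- replicates 1, 2 and 3, and 1.45%, 0.986% and 0.862% in RAG1-/-Sgo1-/+ replicates 4, 5 and 6. Their summed level was 11020 ± 1622 CPM (SD, n = 3) in RAG1-/- and 10984 ± 3084 CPM (SD, n = 3) in RAG1-/-Sgo1-/+. In bulk tissue, fewer cells of a type and less RNA per cell cannot be told apart.

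Levels were compared between genes per kilobase of merged exon, as CPM per kb. Ager stood at 1633 ± 376 CPM per kb over the 6 libraries (SD, n = 6) and Hopx at 1026 ± 216, and each held the same rank, the first and the second, in all 6 libraries. Gprc5a (535 ± 96.5) and Cav1 (535 ± 95.9) could not be ordered, since each was above the other in some libraries. Below them came Emp2 (399 ± 84.2), Aqp5 (313 ± 62.7), Clic5 (214 ± 50.8), Pdpn (154 ± 19.5), Akap5 (104 ± 28.9) and Rtkn2 (64.5 ± 16.6), all in CPM per kb, in the same order in every library. The ranges over libraries of each of these neighbours overlapped, from Gprc5a down to Rtkn2, while those of Ager, Hopx and Gprc5a did not. Rtkn2, the lowest of the set, still had 576 reads in its shallowest library. Counting alone gives an error of 4.17% at that count, or 5.89% if the ends of a pair were counted separately. The exons of Hopx overlap the opposite-strand gene Hopxos and those of Rtkn2 the opposite-strand gene Gm16212. The strand used in counting was not stated, so reads of these partners cannot be told apart.

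The first group of genes acts at the membrane in signalling. Ager encodes RAGE, a receptor of the immunoglobulin superfamily that sits on the basolateral membrane of type 1 cells and binds S100 proteins and HMGB1. Its level was 2677, 1786 and 2024 CPM in RAG1-/- replicates 1, 2 and 3, and 3086, 1971 and 1915 CPM in RAG1-/-Sgo1-/+ replicates 4, 5 and 6. Replicates 1 and 4 were high and the other 4 lay close together, so that the groups overlapped. The log2 fold change, RAG1-/-Sgo1-/+ over RAG1-/-, was 0.10 (SE 0.21, 95% interval -0.37 to 0.58, adjusted p = 0.956). Gprc5a, an orphan receptor induced by retinoic acid and known as a tumor suppressor of the mouse lung, was at 1269, 956 and 997 CPM in RAG1-/- and at 1453, 1031 and 981 CPM in RAG1-/-Sgo1-/+. It had the same high libraries as Ager, and the log2 fold change was 0.10 (SE 0.18, 95% interval -0.30 to 0.51, adjusted p = 0.945). Akap5 encodes a scaffold that anchors protein kinase A near the membrane. It was at 822, 566 and 701 CPM in RAG1-/- and at 1039, 607 and 505 CPM in RAG1-/-Sgo1-/+. The RAG1-/-Sgo1-/+ libraries enclosed the whole RAG1-/- range, with replicate 4 standing 2.06-fold above replicate 6, the widest gap of the 10 genes. Its fitted log2 fold change was 0.042 (SE 0.25, 95% interval -0.52 to 0.60, adjusted p = 0.987). Rtkn2 was at 304, 202 and 257 CPM against 359, 238 and 180 CPM. Here too replicate 4 was highest and replicate 6 lowest, and the log2 fold change was 0.026 (SE 0.24, 95% interval -0.51 to 0.56, adjusted p = 0.991).

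Hopx encodes a small homeodomain protein that does not bind DNA itself and works as a cofactor of other regulators. It was at 1828, 1374 and 1704 CPM in RAG1-/- and at 1943, 1414 and 1067 CPM in RAG1-/-Sgo1-/+. Replicate 6 alone lay below all RAG1-/- libraries. The log2 fold change was -0.15 (SE 0.21, 95% interval -0.61 to 0.32, adjusted p = 0.926).

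Aqp5 and Clic5 serve water and ion handling and the apical cell surface. Aqp5, the water channel of the apical membrane, was at 691, 500 and 556 CPM in RAG1-/- and at 707, 489 and 434 CPM in RAG1-/-Sgo1-/+. Replicates 1 and 4 were nearly level and stood above the other 4 libraries, with a log2 fold change of -0.10 (SE 0.20, 95% interval -0.54 to 0.34, adjusted p = 0.955). Clic5, a chloride intracellular channel protein tied to the actin cortex, was at 1512, 1016 and 1258 CPM in RAG1-/- and at 1691, 1159 and 907 CPM in RAG1-/-Sgo1-/+. Its difference was the smallest in size of the set, a log2 fold change of -0.011 (SE 0.23, 95% interval -0.52 to 0.49, adjusted p = 0.997).

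The last 3 genes shape the cell membrane. Pdpn encodes podoplanin, also called T1-alpha, a mucin-like glycoprotein of the apical surface that lymphatic endothelium and mesothelium also carry. It was at 298, 271 and 311 CPM in RAG1-/- and at 311, 218 and 269 CPM in RAG1-/-Sgo1-/+. Replicate 3 was its highest library and replicate 5 its lowest, whereas the other 9 genes were highest in replicate 4. Its log2 fold change was -0.14 (SE 0.15, 95% interval -0.48 to 0.19, adjusted p = 0.894). Cav1 encodes caveolin-1, the coat protein of caveolae, which are plentiful in type 1 cells and in capillary endothelium. It was at 1718, 1596 and 1946 CPM against 2002, 1406 and 1249 CPM. Replicates 5 and 6 lay below all RAG1-/- libraries and replicate 4 above them, with a log2 fold change of -0.18 (SE 0.18, 95% interval -0.58 to 0.23, adjusted p = 0.894), the largest in size of the 10. Emp2, a tetraspan membrane protein of the PMP22 family, was at 1518, 1126 and 1274 CPM against 1883, 1325 and 1117 CPM. It had the highest fitted ratio of the set, a log2 fold change of 0.14 (SE 0.20, 95% interval -0.30 to 0.58, adjusted p = 0.925).

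**Figure D1:**
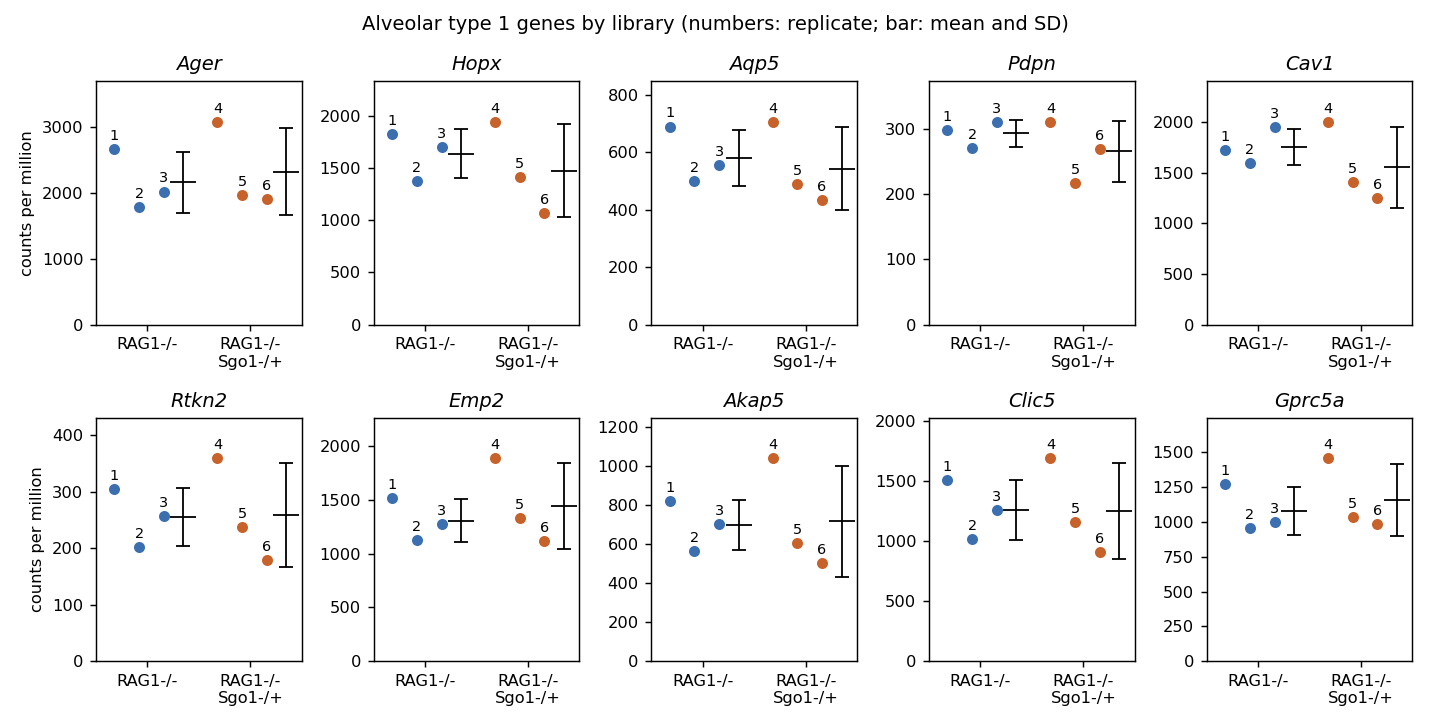
Level of each of the 10 alveolar type 1 genes, in CPM on a linear axis from 0, by genotype. Points are libraries with their replicate number, and the bar beside them gives the mean and SD (n = 3). Replicate 4 is the highest point for 9 genes, and the groups overlap for all 10.

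None of the 10 genes passed the test between genotypes. The count called was 0 of 10 (all genes, 0%), and 0 of 10 had an unadjusted p under 0.05 (all genes, 5.66%). The groups overlapped in all 10, where 11.8% of all genes had groups that did not overlap. Fitted values were lower in RAG1-/-Sgo1-/+ for 5 genes and higher for 5 (45.1% of all genes were lower), with a median log2 fold change of 0.0073 beside 0.034 over all genes. Every 95% interval contained 0 and excluded a 2-fold difference in either direction, reaching at most from 0.653-fold (Hopx) to 1.52-fold (Akap5). The 2-sided exact permutation test on CPM gave p between 0.4 (Pdpn) and 1.0 (Rtkn2 and Clic5), where 3 against 3 libraries allow no p below 0.1. For all 10 genes the range within a genotype was larger than the fitted difference between genotypes, as it was for 94.2% of all genes. Without the library labelled RAG1-/- replicate 2, 8 of the 10 genes were lower and the median was -0.13. Without replicate 6, 2 were lower and the median was 0.19. Without both, 4 were lower and the median was 0.065. Without replicate 1, which leaves the 5 libraries with 8 Xist reads or fewer, read as male, 3 were lower and the median was 0.16. Without replicate 4 all 10 were lower, with a median of -0.29, and Cav1 reached an unadjusted p under 0.05 (log2 fold change -0.40, adjusted p = 0.576). No gene of the set passed the adjusted test in any of these fits.

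**Figure D2:**
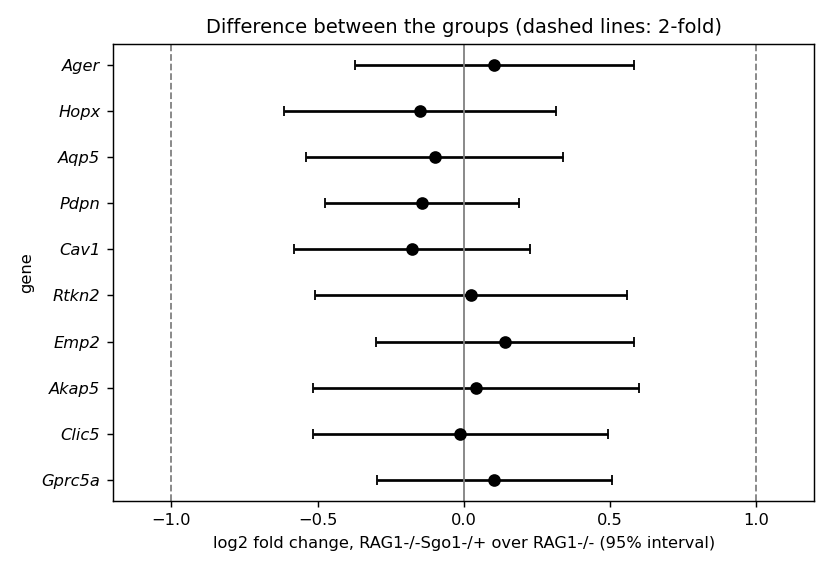
Fitted log2 fold change of each gene, RAG1-/-Sgo1-/+ over RAG1-/-, with its 95% interval. All 10 intervals cross 0 and stay inside the dashed lines at a 2-fold difference.

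The 10 genes were high or low in many of the same libraries. Replicate 4 was the highest of the 6 libraries for 9 of the 10 genes (17.1% of all genes), the exception being Pdpn. Replicate 6 was the lowest for 7 (21.9% of all genes), the library labelled RAG1-/- replicate 2 for Ager and Gprc5a, and replicate 5 for Pdpn. Inside RAG1-/-, replicate 2 was lowest for all 10 genes and replicate 1 highest for 8. Inside RAG1-/-Sgo1-/+, replicate 4 was highest for all 10, and replicate 5 stood above replicate 6 for 9. As log2 deviations from each gene's mean over the 6 libraries, the median over the set was 0.26, -0.23 and 0.033 in replicates 1, 2 and 3 and 0.43, -0.13 and -0.37 in replicates 4, 5 and 6. The ratio of replicate 4 to replicate 6 ran from 1.155 for Pdpn to 2.06 for Akap5.

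The genes differed in how closely they kept to this shared order. The SD of log2 CPM over the 6 libraries lay between 0.195 (Pdpn) and 0.383 (Akap5). After the median deviation of the other 9 genes was subtracted from each library, the SD of Clic5 went from 0.340 to 0.0673, that of Aqp5 from 0.285 to 0.0836 and that of Rtkn2 from 0.369 to 0.0987. Cav1 kept more of its spread (0.266 before, 0.188 after), and Pdpn was the only gene whose SD was larger afterwards (0.195 before, 0.268 after). These are descriptions of 6 libraries, whose genes share depth and tissue sample.

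**Figure D3:**
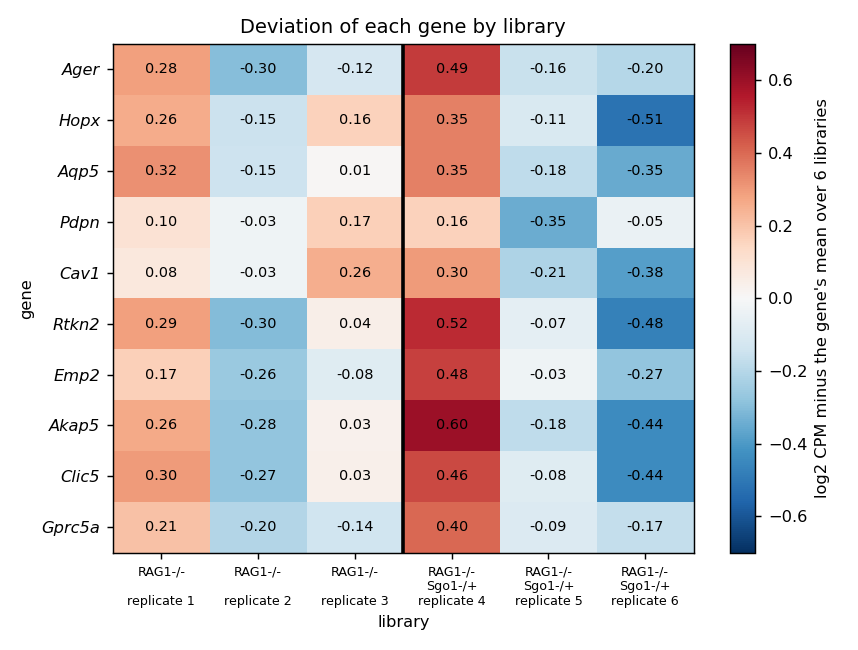
Deviation of log2 CPM from the gene's mean over 6 libraries, red above and blue below, with the genotypes on either side of the black line. Replicate 4 is red in all 10 rows, from 0.16 for Pdpn to 0.60 for Akap5, and the rows of Pdpn and Cav1 differ most from the rest.

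Other cells that carry Pdpn and Cav1 were read in the same libraries. The summed level of 8 mesothelial genes, among them Msln, Upk3b and Wt1, was 315 CPM in replicate 1, against 1646 and 1994 CPM in replicates 2 and 3 and 746 to 1282 CPM in RAG1-/-Sgo1-/+. Msln itself was at 48.3 CPM in replicate 1 and at 123 to 331 CPM elsewhere. Prox1, a defining marker of lymphatic endothelium, had 2 reads or fewer in every library, while Lyve1 was at 92.3 to 198 CPM. The 20 endothelial genes, led by Pecam1, Cdh5 and Cldn5, summed to 4506 to 4648 CPM in RAG1-/- and to 3402 to 4483 CPM in RAG1-/-Sgo1-/+, with the lowest value in replicate 6. Their median deviation lay at -0.33 in replicate 6, with the remaining 5 libraries at 0.040 to 0.093. Adipocyte genes, 9 in all, summed to 1243 CPM in replicate 1 and to 113 to 222 CPM elsewhere. Their part in the levels of Pdpn and Cav1 was not tested.

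A wider list of 25 other type 1 genes was also highest in replicate 4, but its lowest median was in the library labelled RAG1-/- replicate 2 and 10 of the 25 were lowest in replicate 6 (21.9% of all genes). Replicate 4 was the highest RAG1-/-Sgo1-/+ library for 25 of 25, and replicate 2 the lowest RAG1-/- library for 18 of 25. The median deviations of this list were 0.21, -0.23 and -0.011 in replicates 1, 2 and 3, and 0.35, -0.092 and -0.16 in replicates 4, 5 and 6. None of the 25 passed the adjusted test, 12 were fitted lower, and the median log2 fold change was 0.033 beside 0.034 over all genes. One of them, Col4a4, a chain of the collagen IV network found in the alveolar basement membrane, had an unadjusted p under 0.05 (3.15% of all genes in this direction). It was at 51.1, 57.8 and 66.7 CPM in RAG1-/- and at 99.0, 69.6 and 71.4 CPM in RAG1-/-Sgo1-/+, and the groups did not overlap. Of the 25, 1 had higher, not overlapping groups (6.24% of all genes) and 1 had lower ones (5.54%). For Col4a4 the fitted log2 fold change was 0.45, with an SE of 0.17 and an adjusted p of 0.832, and without replicate 4 it was 0.27. Its partner chain Col4a3 was at 194 ± 32.1 CPM against 217 ± 86.3 CPM (SD, n = 3), with replicate 4 at 317 CPM.

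Basement membrane genes shared the high level in replicate 4. Of 18 genes for collagen IV, laminins, nidogens and related proteins, 14 were highest in that library (17.1% of all genes), 4 of the 18 being also among the 25 type 1 genes. Their median deviation was 0.33 in replicate 4 and between -0.16 and 0.032 elsewhere. The median log2 fold change was 0.12 (without replicate 4 -0.083), with 0 passing the adjusted test and 8 fitted lower.

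The median deviation of type 2 genes varied less between libraries than that of type 1 genes. Such a median does not give the spread of the single genes of a list. For 16 genes led by the surfactant protein gene Sftpc, the median deviation ran from -0.14 to 0.14, a range of 0.275 against 0.799 for the 10 type 1 genes. Type 2 genes summed to 36684 ± 3409 CPM in RAG1-/- and 33120 ± 4127 CPM in RAG1-/-Sgo1-/+ (SD, n = 3), with 0 of 16 called and a median log2 fold change of -0.0076. For every 100 reads of type 2 genes RAG1-/- lungs had 31.7, 28.4 and 29.7 reads of the 10 type 1 genes, against 38.3, 31.1 and 28.8 in RAG1-/-Sgo1-/+. The groups overlapped in this ratio, and replicate 4 was again the highest. Ager per 100 reads of Sftpc was 13.1, 10.9 and 10.6 in RAG1-/- against 17.3, 12.7 and 15.4 in RAG1-/-Sgo1-/+, where replicate 5 lay below replicate 1. The 13 genes of the transitional state between the cell types, such as Krt8 and Cldn4, had a median log2 fold change of 0.18. Of these only Lgals3, a galectin that macrophages also make, had an unadjusted p under 0.05 (3.15% of all genes in this direction). Replicate 6 had 608 CPM, where the range elsewhere was 122 to 182 CPM, and its log2 fold change of 1.06 (SE 0.45, adjusted p = 0.832) was 0.15 without replicate 6.

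**Figure D4:**
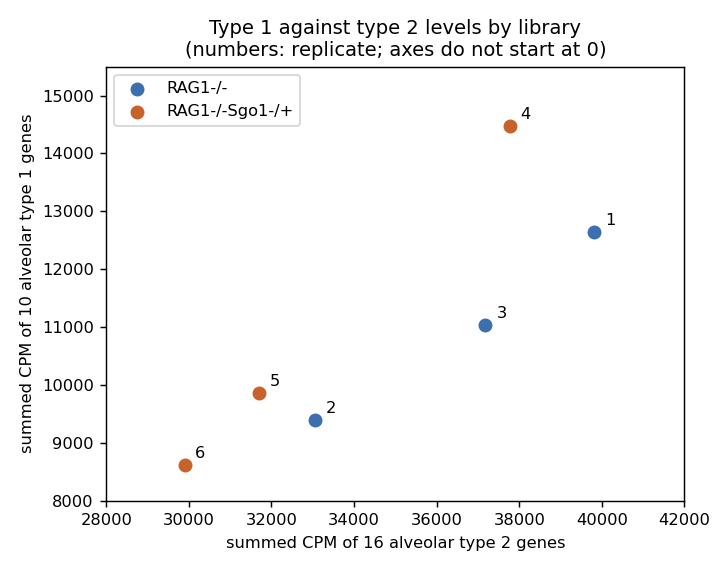
Summed CPM of the 10 type 1 genes (vertical) against that of 16 type 2 genes (horizontal), 1 point per library with its replicate number. Neither axis starts at 0. Replicate 4 lies above the other libraries at 14473 CPM of type 1 genes, and the genotypes are mixed.

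Airway genes followed another order of libraries. Ciliated cell genes had median deviations of 0.17, -0.27 and -0.44 in replicates 1, 2 and 3 and -0.16, 0.34 and 0.29 in replicates 4, 5 and 6, so that replicate 4 was their lowest RAG1-/-Sgo1-/+ library. Of 11 ciliated genes, Foxj1, the master regulator of motile cilia, and the dynein gene Dnah9 had an unadjusted p under 0.05 (3.15% of all genes in this direction), with log2 fold changes of 0.58 (SE 0.24) and 0.52 (SE 0.22), each at an adjusted p of 0.832. The 10 club cell genes were also low in replicate 4, with a median deviation of -0.19. The 14 pan-epithelial genes, among them Epcam and Cdh1, kept within -0.18 and 0.10, and their median log2 fold change was 0.17 with 0 called. Smooth muscle genes had groups that did not overlap for 4 of 8 genes (6.24% of all genes in this direction). Among these Cnn1 (0.96, SE 0.23), Actg2 (1.43, SE 0.37) and Acta2 (0.74, SE 0.20) had positive log2 fold changes, each at an adjusted p of 0.832. Of the 8, 3 were higher at an unadjusted p under 0.05 (3.15% of all genes in this direction), and 0 were fitted lower. The 8 genes summed to 174 ± 27.5 CPM in RAG1-/- and 238 ± 44.7 CPM in RAG1-/-Sgo1-/+ (SD, n = 3). Fibroblast genes (10, median -0.24), cardiac muscle genes (10, median -0.23) and lymphatic genes (6 tested with Pdpn among them, median 0.13) had 0 called. The same was true of mesothelial genes (8, median -0.21, without replicate 1 -0.78, without replicate 3 0.22, with limma-voom 0.37), adipocyte genes (9, median -1.37, without replicate 1 -0.40) and macrophage genes (9, median 0.26, without replicate 6 -0.30). All of these medians are log2 fold changes. At an unadjusted p under 0.05, 2 of the 9 macrophage genes were fitted higher (3.15% of all genes). At the same threshold 1 of the 10 fibroblast genes was fitted lower (2.52% of all genes). The cardiac muscle, lymphatic and mesothelial lists had 0 such genes in either direction. Of the 9 adipocyte genes, which were high in replicate 1, 6 were fitted lower at an unadjusted p under 0.05 (2.52% of all genes), and 2, Lep and Slc36a2, had groups that did not overlap (5.54% of all genes).

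**Figure D5:**
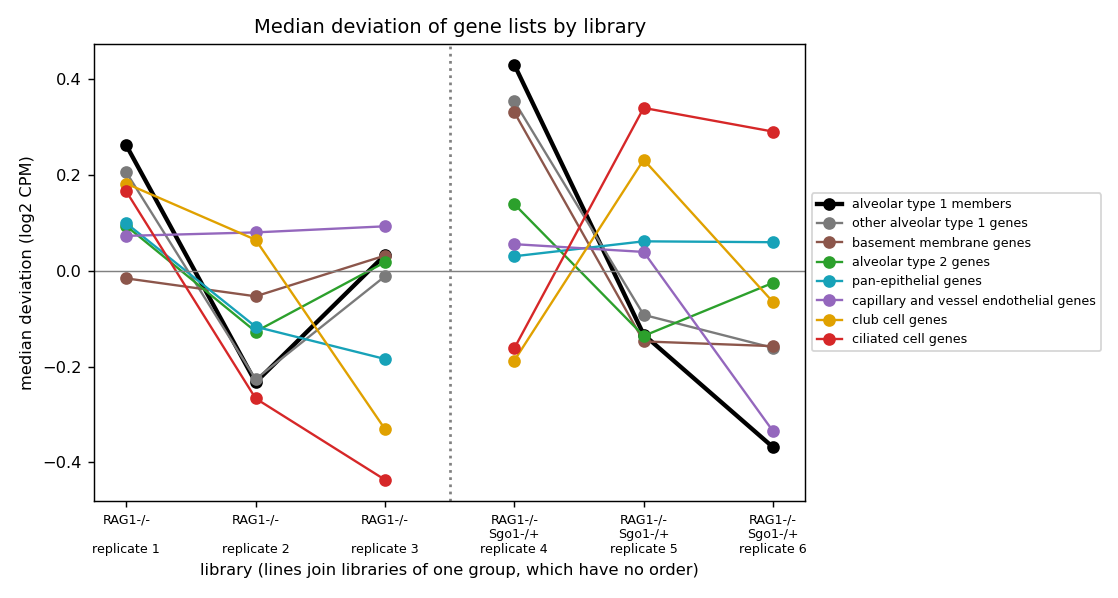
Median log2 deviation of 8 gene lists in each library, with lines joining the libraries of a genotype. The black line of the 10 type 1 genes and the grey line of 25 other type 1 genes peak in replicate 4 (0.43 and 0.35), where ciliated and club cell genes lie below 0.

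Ligands of RAGE, the product of Ager, were measured with its partners in a list of 10 genes. Of these, 3 had an unadjusted p under 0.05 and were fitted lower (2.52% of all genes in this direction), and none passed the adjusted test. S100a9, a subunit of the neutrophil protein calprotectin, was at 50.3, 32.3 and 48.9 CPM in RAG1-/- and at 8.28, 26.3 and 13.7 CPM in RAG1-/-Sgo1-/+. These groups did not overlap (5.54% of all genes in this direction), with a log2 fold change of -1.43 (SE 0.35, adjusted p = 0.832). The other subunit, S100a8, was at 32.9 ± 12.3 CPM against 14.4 ± 7.63 CPM (SD, n = 3), with overlapping groups and a log2 fold change of -1.23 (SE 0.40, adjusted p = 0.832). Hmgb1, a chromatin protein that signals through RAGE once released, was at 321, 308 and 351 CPM against 258, 281 and 227 CPM. The groups did not overlap, and the fitted log2 fold change was -0.35, with an SE of 0.13 and an adjusted p of 0.832. Without the library labelled RAG1-/- replicate 2 the log2 fold changes were -1.61 for S100a9, -1.48 for S100a8 and -0.39 for Hmgb1. Over all fits with 1 library left out, they ran from -2.03 to -1.10 for S100a9 and from -1.55 to -0.85 for S100a8. For Hmgb1 the range was -0.43 to -0.28. The median of the 10 genes was -0.10.

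Relatives of the other members were compared in the same way. Of the caveola genes, 10 in number with Cav1, 0 had an unadjusted p under 0.05, 8 were fitted lower and the median log2 fold change was -0.19. Cav2, which forms hetero-oligomers with caveolin-1, was at 668 ± 104 CPM against 560 ± 147 CPM (SD, n = 3). The coat protein genes Cavin1 (1046 ± 139 against 957 ± 57.6 CPM) and Cavin2 (1118 ± 213 against 964 ± 258 CPM) were likewise within their spread. Among 11 aquaporins, Aqp1, the water channel of capillary endothelium and mesothelium, was at 572, 1200 and 1424 CPM in RAG1-/- and at 1063, 840 and 1010 CPM in RAG1-/-Sgo1-/+, with its lowest level in replicate 1. Aqp6, Aqp8 and Aqp12 had 0 reads in all 6 libraries, which allows up to 0.936 CPM in the shallowest by counting error. Aqp4 was at 31.2 ± 4.81 CPM against 30.1 ± 6.69 CPM (SD, n = 3). The PMP22 family (4 genes, median log2 fold change -0.074) held Emp1 at 272 ± 10.5 against 285 ± 35.6 CPM and Pmp22 at 907 ± 97.8 against 769 ± 183 CPM. In the CLIC family (5 genes, median 0.085), Clic4 was at 653 ± 12.6 against 677 ± 81.1 CPM, a narrower spread than that of Clic5. Gprc5a made up 94.1% of the summed CPM of its 4-gene family, with Gprc5b at 37.5 ± 6.16 against 41.5 ± 9.83 CPM and Gprc5d at 2 reads or fewer in every library. None of these families had a gene that passed the adjusted test. Of the 8 aquaporins tested, 1 was fitted lower at an unadjusted p under 0.05 (2.52% of all genes in this direction). Among them 1 had groups that did not overlap, with lower levels in RAG1-/-Sgo1-/+ (5.54% of all genes). In the PMP22, CLIC and GPRC5 families 0 genes had an unadjusted p under 0.05.

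Regulators and partners of type 1 cells complete the set. Among 14 YAP/TAZ-TEAD genes the median log2 fold change was -0.0051 and 7 were fitted lower. Yap1 was at 162 ± 8.08 against 171 ± 27.5 CPM (SD, n = 3). Among these 14, only the matricellular target Ccn1 had an unadjusted p under 0.05, and it was fitted lower (2.52% of all genes). It was at 313, 295 and 541 CPM in RAG1-/- against 199, 124 and 250 CPM in RAG1-/-Sgo1-/+. Ccn1 was 1 of 2 genes of the list with lower, not overlapping groups (5.54% of all genes), while 1 was higher (6.24%). The fitted value of Ccn1 was -1.01 on the log2 scale (SE 0.28, adjusted p = 0.832). With 1 library left out this value ran from -1.24 to -0.67, the latter without replicate 3. Ccn2, a close relative of Ccn1, was at 273 ± 23.3 against 250 ± 36.9 CPM (SD, n = 3) and did not share the separation of Ccn1. Of 14 alveolar transcription factors, 0 had an unadjusted p under 0.05 and the median was -0.033. Nkx2-1, the lung lineage factor, was picked from this list after its values were seen. It was at 399, 379 and 371 CPM in RAG1-/- against 489, 459 and 412 CPM in RAG1-/-Sgo1-/+. These groups did not overlap and had a log2 fold change of 0.24 (SE 0.12, adjusted p = 0.832). Nkx2-1 was the 1 gene of the 14 with higher, not overlapping groups (6.24% of all genes), and 0 had lower ones (5.54%). Podoplanin partners (9 genes, median 0.0011) and junction and ion transport genes (15 genes, median 0.019) had 0 genes with an unadjusted p under 0.05. The endothelial receptor gene Calcrl, whose ligand adrenomedullin acts on lung capillaries, was at 1065, 893 and 946 CPM against 813, 773 and 519 CPM. It was the 1 endothelial gene of 20 with an unadjusted p under 0.05 (2.52% of all genes in this direction) and had a fitted value of -0.46 (SE 0.18, adjusted p = 0.832), while the endothelial median was -0.14, both as log2 fold changes. Without replicate 6 these values were -0.29 and -0.020. The groups did not overlap, with lower levels in RAG1-/-Sgo1-/+, for Calcrl, Cdh5 and Tek, 3 of the 20 genes (5.54% of all genes), and with higher levels for 1, Tie1 (6.24% of all genes).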

How the data were processed

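Total lung RNA was made into TruSeq V2 libraries and sequenced as paired ends on a MiSeq. The authors deposited raw counts per gene, made with GeneSifter on mouse build 37.2. The submitters' processing notes name BWA and edgeR, while strand and how multi-mapping reads were handled are not given in the sources used here. Of low counts between 1 and 50, 76.6% are even, as when the ends of a pair are counted separately. The 6 repeated columns and the authors' own list of group means, fold changes and p-values were not used.

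Entrez IDs were matched to symbols for 24048 genes (93.0%). Genes with at least 10 counts in all (17231) were tested in edgeR 4.0.16 (R 4.3.3) by quasi-likelihood, taking the total count for library size, with a prior count of 0.125 and Benjamini-Hochberg adjustment over all genes tested. A call needed an adjusted p under 0.05 and at least 2-fold. The SE is the log2 fold change over the square root of F. Exon lengths came from GENCODE on GRCm38. The 2-sided exact permutation test was run with scipy 1.17.1. The fit was also run on simulated counts with these depths and dispersions, which held no sex or tissue differences between libraries. The p-values weigh the difference between genotypes against the spread between these mice only.

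The 10 genes and the 25 comparison lists were chosen with earlier results of these data known, so lists are described by counts and medians. One listed macrophage gene was not matched in the table. Named were the 10 genes, Sgo1, Rag1, genes that mark libraries, family relatives and at most 3 genes per list with an unadjusted p under 0.05. Col4a3, Ccn2, Nkx2-1, Yap1 and Lyve1 were chosen after their values were seen. Alternatives were equal library sizes, DESeq2 size factors, TMM, filterByExpr, no filter, a prior count of 2, DESeq2 1.42.0, limma-voom (limma 3.58.1), thinning to 3205822 counts, and libraries left out. For 12 listed genes beyond the 10 they were added after the data were seen.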

Additional observations from a re-analysis of the deposited data

How the results depend on the processing

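None of the 10 genes passed the adjusted test under any of the 16 alternatives. Over all genes 0 were called, against 1 with the DESeq2 test, 72 with equal library sizes, and 0 to 1 with 1 library left out (1 without replicate 5). Equal library sizes leave depth in the values: the median of all genes moved to -0.59 and that of the 10 genes to -0.63, with 10 of 10 lower. Relative to all genes that is -0.04. Signs turned there for Ager (-0.56), Rtkn2 (-0.61), Emp2 (-0.49), Akap5 (-0.59), Gprc5a (-0.55), Col4a4 (-0.14), Foxj1 (-0.13) and Dnah9 (-0.15), all log2 fold changes, while S100a9 (-2.07, adjusted p = 0.0015) and S100a8 (-2.00, adjusted p = 0.0029) passed. With limma-voom Rtkn2 was -0.0080 and Akap5 -0.011. Without replicates 2 and 6 together Clic5 was 0.041. With 1 library left out, the number of the 10 genes lower in RAG1-/-Sgo1-/+ ran from 2 (without replicate 6) to 10 (without replicate 4), the number with an unadjusted p under 0.05 from 0 to 1, and their median from -0.29 to 0.19. The log2 fold change ran from -0.15 to 0.29 for Ager, -0.40 to 0.037 for Hopx, -0.34 to 0.042 for Aqp5, -0.28 to 0.23 for Rtkn2, -0.097 to 0.30 for Emp2, -0.33 to 0.24 for Akap5, -0.29 to 0.17 for Clic5 and -0.095 to 0.24 for Gprc5a. Pdpn and Cav1 stayed lower under all 16 alternatives. The cause of the other changes was not tested. No paired analysis was possible because the sample labels give no litter or other pairing of the mice. With 3 mice a group, differences inside a gene's own 95% interval were not excluded.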
